A study of Mus musculus with 30 samples.

Results

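The respiratory chain of mitochondria was followed here through 49 nuclear genes that encode subunits of complexes I to IV. They were placed in a complex by the start of the gene symbol alone, Nduf, Sdh, Uqcr or Cox. That gave 31 genes for complex I, 4 for complex II, 6 for complex III and 8 for complex IV. A gene was read from its brightest probe set over all 30 arrays among the probe sets that carry its symbol alone. Such a probe set was found for 47 of the 49 genes, out of 18193 genes on the array. Ndufs6 was present only on probe sets that carry several symbols and Cox7b was not matched, so neither has a value. The probe set of Ndufb4 lay at 2.95 ± 0.27 (SD, n = 5) in unexposed liver and 2.68 ± 0.19 in unexposed lung, under the level required for testing, so 46 genes were tested in each tissue: 29 of complex I, 4 of complex II, 6 of complex III and 7 of complex IV.

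The arrays hold RNA of fetal liver and fetal lung of CD-1 mice, an outbred stock. Pregnant dams were gavaged daily with perfluorooctane sulfonate (PFOS), a persistent fluorinated surfactant, as its potassium salt in 0.5% Tween 20. Dosing ran over gestation days 1 to 17 at 0, 5 or 10 mg/kg/day, called unexposed, the lower dose and the higher dose below, and fetuses were taken on day 18. Each tissue has 5 litters per dose, and each array is 1 litter, for which RNA of 3 fetuses was pooled. Liver and lung were only portions of the organ, all groups carried the Tween 20 vehicle, and the labels do not say whether liver and lung of 1 replicate number came from the same litter. The comparisons ask whether subunit transcripts differed with dose in either tissue, whether liver and lung differed in their change, and how the tissues differ without PFOS.

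The electron transport chain sits in the inner mitochondrial membrane. Complex I takes electrons from NADH and complex II takes them from succinate; both pass them to ubiquinone, complex III passes them to cytochrome c, and complex IV passes them to oxygen. Complexes I, III and IV pump protons as they do so, and ATP synthase uses the resulting gradient. All except complex II also contain subunits encoded by the mitochondrial genome. Liver before birth is still a blood-forming organ with many erythroid cells beside the hepatocytes, and lung at that age is approaching its first breath.

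The samples matched their tissue labels. The mean log2 level of 9 hepatocyte markers was 11.90 to 12.24 over the liver arrays and 6.94 to 9.04 over the lung arrays, and that of 10 lung epithelial markers was 10.08 to 10.43 in lung and 4.50 to 5.05 in liver. Ehhadh, a peroxisomal beta-oxidation enzyme that serves as an exposure check, rose in liver by 2.90 and 3.30 and in lung by 1.85 and 2.66 at 5 and 10 mg/kg/day. Litters that stood apart were unexposed liver litters 2, 3 and 5, with Cym, the stomach protease chymosin, at 11.27, 9.50 and 8.20 against 4.23 to 5.60 in the other 12 liver litters. In lung, 14 cardiac muscle markers had a mean level of 6.22 to 10.22, highest in litter 5 at 10 mg/kg/day and next in unexposed litter 1. Calls of mitochondrial genes are given below with and without these litters. Each array is a tissue homogenate, so fewer cells of a type and less RNA per cell cannot be told apart.

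In fetal liver, 1 of the 46 tested subunits changed with PFOS. Ndufa3, a small accessory subunit of complex I, rose at both doses and was the 1 of 46 members called at each. A call is an adjusted p under 0.05 (limma, Benjamini-Hochberg over all genes tested), and over all genes 6.07% were called at the lower dose and 10.5% at the higher. At an unadjusted p under 0.05 there were 6 members against 19.8% of all genes at the lower dose, and 5 members against 24% of all genes at the higher dose. The median change of the 46 members was 0.04 and 0.00 on the log2 scale, where all genes had -0.01 and -0.02. The median size of change, regardless of sign, was 0.0516 and 0.0373 for members and 0.0935 and 0.103 for all genes. The 95% confidence intervals of all 46 members lay between -0.27 and 0.37 at the lower dose and between -0.31 and 0.46 at the higher dose. Both doses share the unexposed litters, so their changes are not independent of each other.

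Ndufa3 was measured in unexposed liver at 10.79, 10.65, 10.73, 10.77 and 10.68 in litters 1 to 5. At the lower dose the litters had 11.13, 10.95, 10.89, 10.94 and 10.89, and at the higher dose 11.05, 10.95, 11.13, 11.12 and 11.01. All exposed liver litters lay above all unexposed ones, and the litters of both doses overlapped each other. The change was 0.24 (SE 0.06, 95% CI 0.11 to 0.37, limma adjusted p = 0.0248), or 1.18-fold, at the lower dose and 0.33 (SE 0.06, CI 0.20 to 0.46, adjusted p = 0.00183), or 1.26-fold, at the higher dose. The further change between the doses was 0.09 (CI -0.04 to 0.22, adjusted p = 0.725). The brightest probe set of Ndufa3 is of a kind whose probes may match other transcripts as well, and a further bright one, not of that kind, gave 0.27 and 0.34. The call at the higher dose was kept in 10 of 10 fits that leave out 1 litter. The call at the lower dose was lost without unexposed litter 2, without unexposed litter 5, or without litter 1 at that dose, with an adjusted p of up to 0.0679, and with quantile normalization of the arrays (adjusted p = 0.0719). Without unexposed litters 2, 3 and 5, which leaves 2 unexposed litters, no member was called at either dose: Ndufa3 differed by 0.18 (adjusted p = 0.350) and 0.27 (adjusted p = 0.103), and 2 and 1 members had an unadjusted p under 0.05.

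In lung the same probe set of Ndufa3 gave 10.59, 10.52, 10.41, 10.57 and 10.42 without PFOS, 10.43, 10.56, 10.53, 10.60 and 10.43 at the lower dose, and 10.42, 10.63, 10.52, 10.49 and 10.67 at the higher dose. These groups overlapped, and the change was 0.01 (CI -0.12 to 0.14) and 0.04 (CI -0.09 to 0.18). The liver change exceeded the lung change by 0.23 (CI 0.06 to 0.40, limma adjusted p = 0.200) at the lower dose and by 0.29 (CI 0.12 to 0.46, adjusted p = 0.0483) at the higher dose. The latter call was kept in 6 of the 20 fits that leave out 1 litter and was lost in 14, with an adjusted p of up to 0.0992. It was also lost without unexposed liver litters 2, 3 and 5, with a difference of 0.23 (adjusted p = 0.298), without the 2 lung litters highest in cardiac markers (adjusted p = 0.0575), with quantile normalization (adjusted p = 0.112) and with the replicate number as a block (adjusted p = 0.0675). The call was kept with dose and number together as a random block (limma adjusted p = 0.0332), a fit chosen after seeing the data.

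The 250 bases before the annotated start of Ndufa3, the 1 member called with PFOS, are shown in full. They lie at chr7:3617123-3617372 on the plus strand of GRCm38.p6, from RefSeq.
Ndufa3: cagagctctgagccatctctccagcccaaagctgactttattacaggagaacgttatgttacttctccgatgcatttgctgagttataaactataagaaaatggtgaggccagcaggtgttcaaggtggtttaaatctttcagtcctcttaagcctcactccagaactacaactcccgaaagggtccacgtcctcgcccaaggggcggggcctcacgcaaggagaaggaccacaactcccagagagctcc
The window that RefSeq gives for each gene runs from 250 bases before to 50 after the start, and 40 of the 49 genes had such a window, with 42 windows in all. Motifs were searched on both strands by their letters for NRF1 (GCGCNTGCG), GABP (CCGGAAG), ERR (TCAAGGTCA), YY1 (AAGATGGCG) and PPAR (GGTCANAGG), factors known from work on nuclear genes of mitochondrial proteins and of lipid oxidation. No such letters were in the window of Ndufa3, which is why its sequence has no capitals. A match of letters describes the sequence only.

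**Figure D1:**
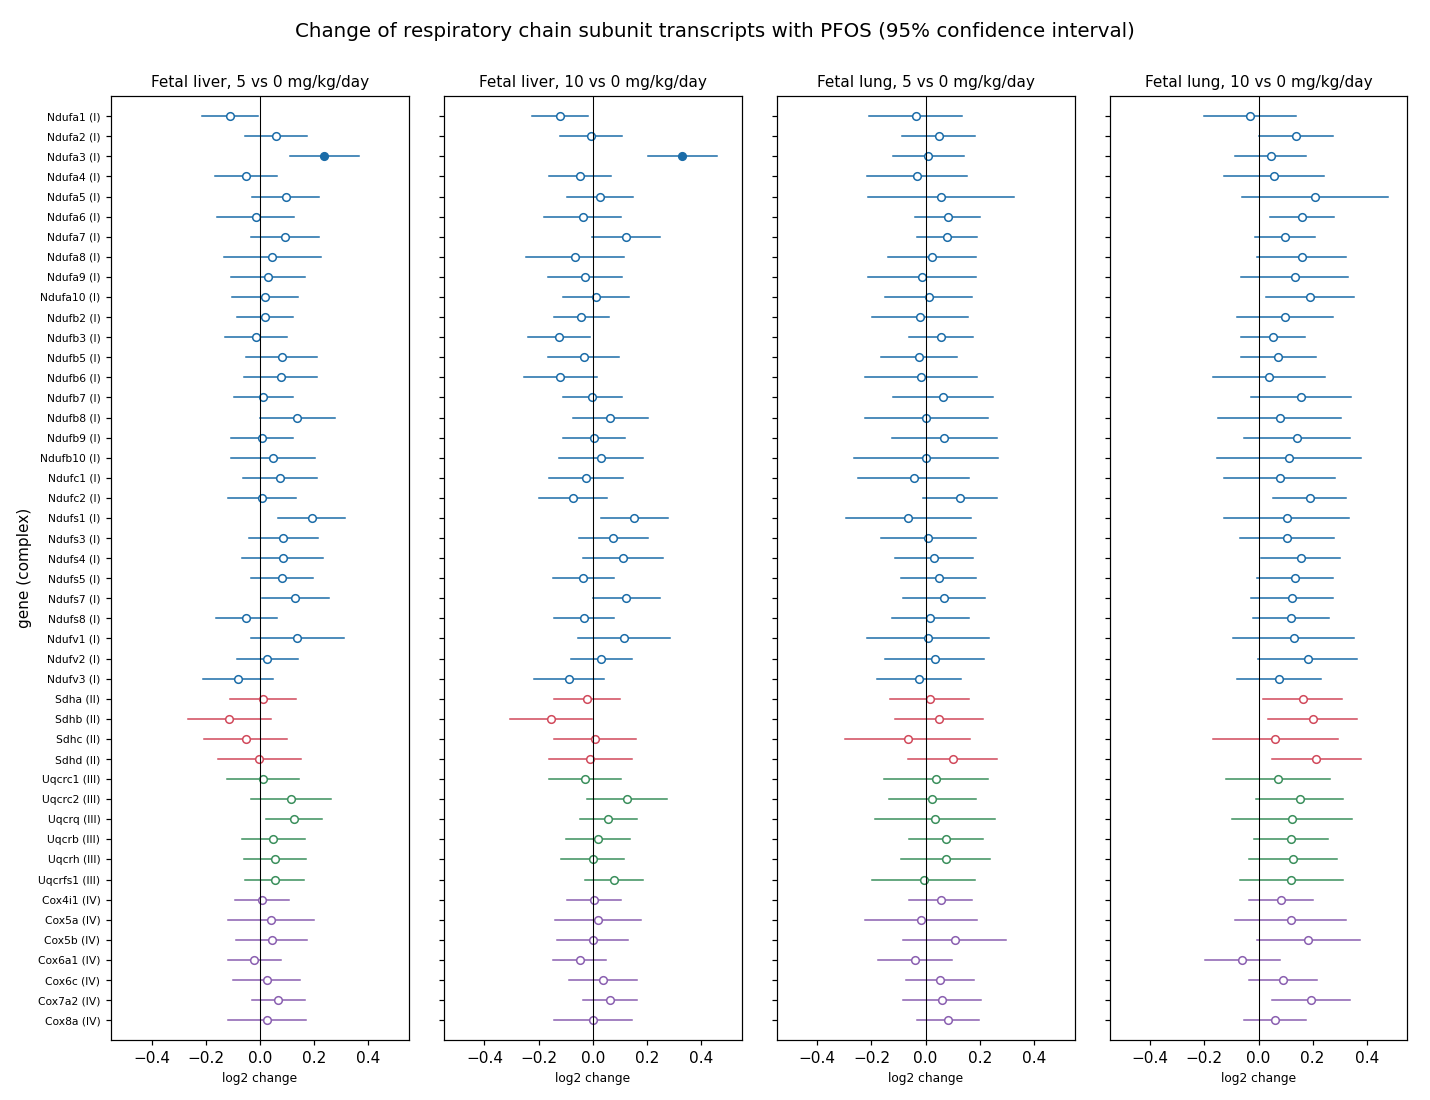
Change of each tested subunit (rows, with its complex) on the log2 scale in liver and lung at both doses against 0, with 95% confidence intervals from the limma fit, n = 5 litters per group; filled points have an adjusted p under 0.05. Ndufa3 in liver is the filled point at both doses, and in lung at the higher dose 44 of 46 points lie to the right of 0 with none filled.

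The other members of complex I showed small differences in liver. The 6 core subunits tested are of the part of the complex that holds its flavin and iron-sulfur clusters, and their median change was 0.11 at the lower dose and 0.10 at the higher dose, none of them called. Ndufs1, the largest of these iron-sulfur subunits, was at 9.07, 9.18, 9.14, 9.24 and 9.07 in unexposed liver, at 9.41, 9.33, 9.25, 9.41 and 9.24 at the lower dose, and at 9.18, 9.26, 9.34, 9.39 and 9.29 at the higher dose. The litters at the lower dose lay above the unexposed ones, the closest of both groups rounding to 9.24, while those at the higher dose overlapped the unexposed ones. The difference was 0.19 (CI 0.07 to 0.32, limma adjusted p = 0.0682) and 0.15 (CI 0.03 to 0.28, adjusted p = 0.115). Among the 23 tested accessory subunits the median was 0.05 and -0.03. Ndufa1, an X-linked accessory subunit, had the opposite sign to Ndufa3, with differences of -0.11 (adjusted p = 0.219) and -0.12 (adjusted p = 0.139).

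Complex II, also called succinate dehydrogenase, is the one complex of the chain that is an enzyme of the citric acid cycle as well. Its 4 subunits had medians of -0.03 and -0.02 in liver. Sdhb, the iron-sulfur subunit, had the smallest p of the complex at both doses. It was at 10.10, 10.21, 10.15, 10.26 and 10.24 without PFOS, 10.04, 10.00, 10.11, 10.18 and 10.07 at the lower dose, and 9.95, 9.86, 10.27, 10.13 and 9.99 at the higher dose. The groups overlapped, and litter 3 at the higher dose was above every unexposed litter. The difference was -0.11 (CI -0.27 to 0.04, limma adjusted p = 0.429) and -0.15 (CI -0.31 to -0.0014, adjusted p = 0.204).

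Complex III hands electrons to cytochrome c, and its 6 subunits had liver medians of 0.06 and 0.04. Uqcrq, a small subunit next to cytochrome b, had a narrow range of 10.76 to 10.78 in unexposed liver. At the lower dose the litters were at 11.00, 10.86, 10.90, 10.85 and 10.84, all above the unexposed range, and at the higher dose at 10.81, 10.79, 10.93, 10.78 and 10.81. The difference was 0.13 (CI 0.02 to 0.23, limma adjusted p = 0.159) at the lower dose and 0.06 (CI -0.05 to 0.16, adjusted p = 0.537) at the higher, and neither was called. The next brightest probe set of Uqcrq, a dim one, gave -0.11 at the lower dose. Uqcrc2, a core protein of the complex, was at 10.29, 10.43, 10.41, 10.60 and 10.51 without PFOS, at 10.50, 10.50, 10.58, 10.68 and 10.56 at the lower dose, and at 10.48, 10.48, 10.70, 10.69 and 10.53 at the higher. These groups overlapped, and the difference was 0.11 (CI -0.03 to 0.26, limma adjusted p = 0.395) and 0.13 (CI -0.02 to 0.27, adjusted p = 0.287).

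Complex IV reduces oxygen, and its 7 tested subunits had the liver medians 0.03 and 0.01. Their confidence intervals ran from -0.12 to 0.20 at the lower dose and from -0.15 to 0.18 at the higher dose. Cox7a2, the isoform of this subunit found widely outside muscle, was at 11.86, 11.84, 11.85, 11.91 and 11.89 without PFOS, at 11.92, 11.88, 11.96, 11.97 and 11.96 at the lower dose, and at 11.92, 11.86, 11.99, 11.97 and 11.93 at the higher dose. The groups overlapped, with differences of 0.07 (CI -0.03 to 0.17, limma adjusted p = 0.464) and 0.06 (CI -0.03 to 0.16, adjusted p = 0.451).

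Between the 2 doses no member was called in liver (limma, 0 of 46), and 0.00754% of all genes were. At an unadjusted p under 0.05 there were 2 members, Ndufb6 and Ndufs5, against 7.8% of all genes.

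Marker genes of the liver's cell types also differed among the liver groups. The 9 hepatocyte markers averaged 11.97 to 12.24 in unexposed liver, 11.99 to 12.15 at the lower dose and 11.90 to 12.17 at the higher dose. Of these, Apoa1 and Ahsg, both secreted plasma proteins, were called lower at the higher dose, at -0.17 and -0.18. There Apoa2 and Alb, plasma proteins too, were at 0.10 and 0.0027, and Apob, Ttr, Tat, Hnf4a and Fgb were lower, none of them called. Over all genes 1.81% were called lower at the lower dose and 5.22% at the higher dose. The mean level of 10 erythroid markers was 9.32 to 9.58 in unexposed liver, 9.10 to 9.28 at the lower dose and 9.14 to 9.56 at the higher dose, and 3 of the 9 tested were called lower at the lower dose. Granulocyte markers, 9 in number, averaged 11.24 to 11.45, 10.93 to 11.36 and 10.85 to 11.17 in the same order, with 3 called lower at the higher dose. The part of these cells in the change of Ndufa3 was not tested.

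**Figure D2:**
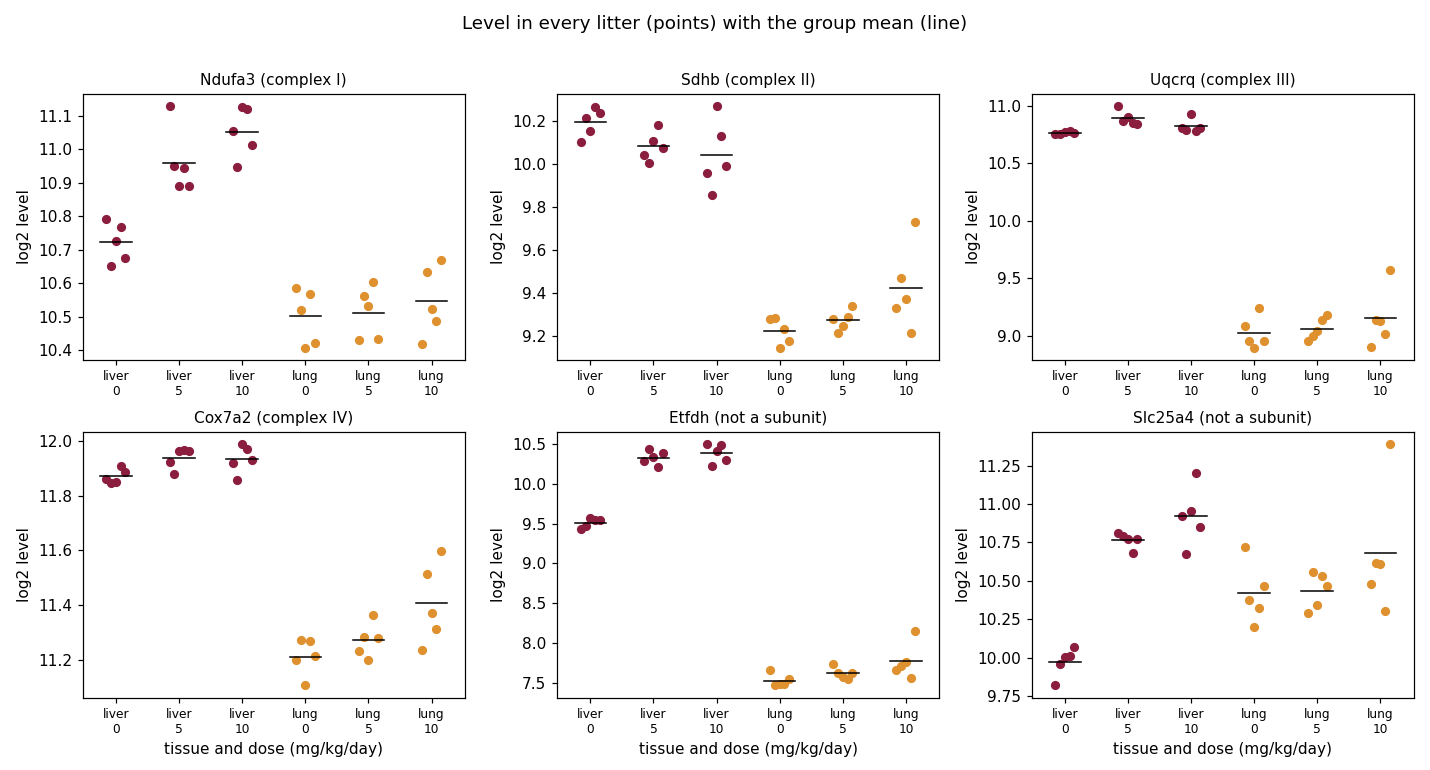
Log2 level in every litter (points) with the group mean (line) for 4 subunits and for Etfdh and Slc25a4, which are no subunits, by tissue and dose in mg/kg/day, n = 5 litters per group. Ndufa3, Etfdh and Slc25a4 are higher in all exposed liver litters than in all unexposed ones. Lung litter 5 at the higher dose is the highest lung litter for Ndufa3, Sdhb, Uqcrq, Cox7a2, Etfdh and Slc25a4.

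Genes that feed the chain, help to build it or sit beside it in the membrane were read in liver as well, against the same 6.07% and 10.5% of all genes. Of 17 electron carrier genes, which bring electrons to ubiquinone or make it, 5 rose at each dose, with medians of 0.17 and 0.13. Etfdh, the dehydrogenase that passes electrons of fatty acid oxidation to ubiquinone, was at 9.43, 9.47, 9.57, 9.55 and 9.55 without PFOS. It reached 10.28, 10.43, 10.33, 10.21 and 10.38 at the lower dose and 10.50, 10.23, 10.41, 10.49 and 10.29 at the higher dose, so all exposed litters were above the unexposed ones. Its rise was 0.81 and 0.87 (SE 0.07 for both), past the threshold in limma. Its electron donors Etfa and Etfb rose by 0.23 and 0.31 at the lower dose and by 0.27 and 0.35 at the higher dose, and Coq3, a methyltransferase of ubiquinone synthesis, rose by 0.49 and 0.38. Cycs, cytochrome c itself, rose by 0.26 at the lower dose, and Pdss2, which makes the tail of ubiquinone, rose by 0.30 at the higher dose. With unexposed litters 2, 3 and 5 left out, 2 carriers were called at each dose, Etfdh among them both times. The calls of Cycs and Pdss2 were lost in 11 of 21 and 11 of 19 alternatives.

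Among 38 tested assembly factors there were 4 calls at each dose, all higher at the lower dose and 3 of them higher at the higher dose, and the medians were 0.10 and 0.04. At the higher dose that count is about the share called over all genes, 10.5%. Sco2, which delivers copper to complex IV, rose by 0.68 and 0.93, from 6.66, 6.90, 7.54, 6.80 and 6.86 without PFOS to 7.59, 7.92, 7.59, 7.43 and 7.63 and then 8.25, 7.33, 7.64, 8.21 and 7.96. Unexposed litter 3 overlapped both exposed groups. Coa7 and Cox16, factors for complex IV assembly, rose by 0.38 and 0.27 at the lower dose and by 0.42 and 0.20 at the higher dose. Sdhaf1, an assembly factor of complex II, rose by 0.31 at the lower dose, and Coa6 fell by 0.24 at the higher dose. Without unexposed litters 2, 3 and 5, only Sco2 of this list was called at either dose. The call of Sco2 at the lower dose was lost in 9 of 21 alternatives and that of Coa6 in 14 of 21, and the second probe set of Coa7 gave 0.05 at the higher dose.

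Among 14 mitochondrial membrane proteins, 3 rose at each dose, with medians of 0.10 and 0.10. Slc25a4, the ADP/ATP carrier that exports ATP to the cytosol, was at 9.82, 9.96, 10.01, 10.01 and 10.07 without PFOS, at 10.81, 10.79, 10.77, 10.68 and 10.77 at the lower dose, and at 10.92, 10.67, 10.95, 11.20 and 10.85 at the higher dose. Exposed and unexposed litters did not overlap, and the rise was 0.79 and 0.95 (SE 0.08 for both). Hspd1, a chaperonin, rose by 0.31 and 0.37, and Tomm70a, an import receptor, by 0.25 and 0.23. Among 12 citric acid cycle genes 2 rose at each dose, with medians of 0.14 and 0.09: Cs, citrate synthase, rose by 0.29 and 0.26 and Fh1, fumarase, by 0.22 and 0.25. Without unexposed litters 2, 3 and 5, Slc25a4 was still called at both doses, Hspd1 at the higher dose alone, and no citric acid cycle gene at either dose. The calls of Cs were lost in 12 of 21 alternatives at each dose.

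ATP synthase, which uses the gradient made by the chain, gave no calls over its 16 genes at either dose in limma. Its medians were 0.01 and -0.01, and 0 and 1 genes had an unadjusted p under 0.05. Subunits of complexes I, III and IV beyond the 49 genes gave 0 calls at the lower dose. At the higher dose, where 10.5% of all genes were called, 2 of 16 were. These were Ndufab1, the mitochondrial acyl carrier protein of complex I, which rose by 0.21 (limma adjusted p = 0.0131), and Cox6b2, the testis isoform of a complex IV subunit, which rose by 0.37 (adjusted p = 0.0125). The one mitochondrially encoded subunit matched, ND5 of complex I, differed by -0.04 and 0.12 and was not called. Of 12 regulators of mitochondrial gene expression, Tfam, which packages mitochondrial DNA, rose by 0.19 at the lower dose, and the coactivator Ppargc1b rose by 0.60 at the higher dose. The call of Tfam was lost in 15 of 21 alternatives, over which the difference was 0.04 to 0.21. Without unexposed litters 2, 3 and 5, Ndufab1, Cox6b2 and Tfam were not called (limma adjusted p = 0.116, 0.225 and 0.197), while Ppargc1b was called at the higher dose with 0.90 and also at the lower dose with 0.69.

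In fetal lung no subunit was called at the lower dose (limma, 0 of 46), where 0.0155% of all genes were, and 0 members against 4.62% of all genes had an unadjusted p under 0.05. The 95% confidence intervals of the members lay between -0.30 and 0.33. None was called at the higher dose, where 0.0543% of all genes were. There 44 of 46 changes were above 0, with a median of 0.12 against 0.01 for all genes, and 9 members, all of them higher, had an unadjusted p under 0.05 against 6.91% of all genes. The confidence intervals lay between -0.20 and 0.48. Between the doses no member was called, as was true of 0% of all genes, the median was 0.09, and 2 members had an unadjusted p under 0.05 against 2.3% of all genes.

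The smallest p at the lower dose was that of Ndufc2 in complex I, Sdhd in complex II, Uqcrb in complex III and Cox8a in complex IV. Uqcrb, a small subunit that binds ubiquinone, was at 12.10, 11.89, 11.91, 11.82 and 11.94 without PFOS, at 12.01, 12.01, 12.00, 12.04 and 11.98 at the lower dose and at 11.93, 12.14, 12.03, 11.96 and 12.21 at the higher. Unexposed litter 1 was among the highest litters, the groups overlapped, and the difference at the lower dose was 0.07 (CI -0.06 to 0.21), with -0.05 from its second probe set. Cox8a, the isoform of a small subunit used outside muscle, was at 9.64, 9.60, 9.56, 9.63 and 9.54, then at 9.60, 9.75, 9.62, 9.79 and 9.63 and at 9.61, 9.69, 9.63, 9.59 and 9.76. Its groups overlapped too, with a difference of 0.08 (CI -0.03 to 0.20) at the lower dose, and -0.0023 from its second probe set.

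By complex, the lung medians at the higher dose were 0.12 for complex I, 0.18 for complex II, 0.12 for complex III and 0.09 for complex IV. Sdhd, the small membrane anchor of complex II, was at 8.82, 8.90, 8.71, 8.93 and 8.79 without PFOS, at 9.00, 8.94, 8.85, 8.95 and 8.91 at the lower dose, and at 8.99, 9.06, 9.04, 8.81 and 9.33 at the higher dose. Litter 4 of the last group was among the unexposed litters and litter 5 was far above them, and the difference was 0.21 (CI 0.05 to 0.38, limma adjusted p = 0.594). The other probe set of Sdhd gave 0.04 at the higher dose and -0.0065 at the lower. Ndufc2, a complex I subunit of the membrane arm, was at 10.71, 10.86, 10.86, 10.86 and 10.99 without PFOS, at 10.96, 10.92, 10.93, 11.04 and 11.06 at the lower dose, and at 10.93, 11.08, 11.11, 10.93 and 11.17 at the higher dose. Its groups overlapped, with a difference of 0.13 (adjusted p = 0.998) at the lower dose and 0.19 (CI 0.05 to 0.32, adjusted p = 0.594) at the higher dose.

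Cox7a2 in lung went from 11.20, 11.27, 11.11, 11.27 and 11.21 to 11.23, 11.28, 11.20, 11.37 and 11.28 and then to 11.24, 11.51, 11.37, 11.31 and 11.60, a difference of 0.06 and 0.19 with overlapping groups, where its other probe set gave -0.03 and 0.07. In complex III, Uqcrc2 was at 9.52, 9.71, 9.62, 9.65 and 9.60 without PFOS and at 9.78, 9.82, 9.73, 9.51 and 10.02 at the higher dose. Litter 4 at that dose was below every unexposed litter, and the difference was 0.15 (CI -0.01 to 0.31, limma adjusted p = 0.726).

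Heart muscle transcripts also differed between the lung litters. The 14 cardiac muscle markers had mean levels of 9.25, 7.30, 6.60, 7.08 and 8.09 in unexposed litters 1 to 5, of 6.22, 8.57, 6.85, 8.23 and 7.54 at the lower dose, and of 7.55, 8.09, 8.40, 7.73 and 10.22 at the higher dose. The 47 subunits averaged 9.43, 9.45, 9.32, 9.49 and 9.41 without PFOS, 9.41, 9.44, 9.39, 9.51 and 9.48 at the lower dose, and 9.40, 9.57, 9.50, 9.41 and 9.78 at the higher dose. Litter 5 at the higher dose was the highest of all 15 in both, and unexposed litter 3 was the lowest in the subunits and the second lowest in the markers. Over all 15 litters both means correlated with r = 0.72 (rank correlation 0.57), and with r = 0.56 without the 2 litters farthest from the median marker level. The part of muscle cells in the subunit levels was not tested. Some litters did not follow this order. Unexposed litter 1, next highest in the markers, was at 9.43 in the subunits, under the median of all lung litters, 9.44. Litter 1 at the lower dose, the lowest in the markers, was at 9.41 in the subunits. Cox7a1, the isoform of the complex IV subunit found in heart and skeletal muscle, was at 6.96 in that litter 5 and at 5.84 in unexposed litter 1, against 4.07 to 5.30 in the other 13.

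At the higher dose 13 of 13 tested cardiac markers were above the unexposed mean, with a median of 0.72 and none called in limma, and 0 had an unadjusted p under 0.05. Without litter 5 at the higher dose the median change of the subunits was 0.05 in place of 0.12, and 4 members in place of 9 had an unadjusted p under 0.05. Without that litter and unexposed litter 1 the median was 0.06, with 1 such member, and with the cardiac level as a covariate it was 0.06, with 4 such members. Leaving out the other litters 1 at a time gave medians of 0.09 to 0.16.

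**Figure D3:**
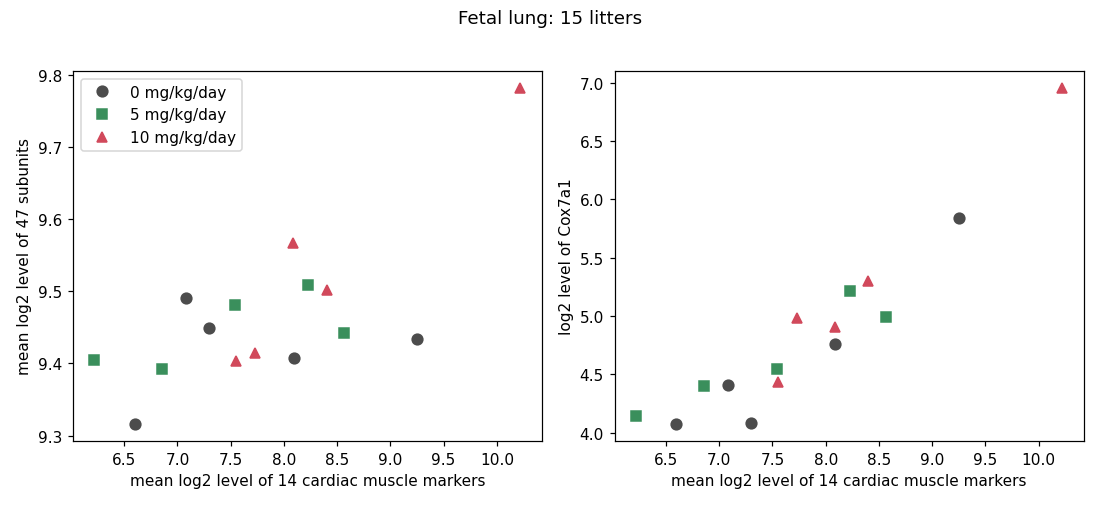
Mean log2 level of the 47 subunits (left) and log2 level of the muscle isoform Cox7a1 (right) against the mean log2 level of 14 cardiac muscle markers, 1 point per lung litter, 15 litters. The litter at the higher dose with the highest cardiac level, 10.22, also has the highest subunit mean, 9.78, and the highest Cox7a1, 6.96.

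Other mitochondrial genes gave no calls in lung at either dose in limma. At the higher dose the median change was 0.11 for ATP synthase, 0.10 for the electron carriers, 0.11 for the citric acid cycle genes and 0.05 for the assembly factors, with 0, 3, 1 and 3 genes at an unadjusted p under 0.05. Etfdh, raised in every exposed liver litter, was at 7.66, 7.47, 7.48, 7.49 and 7.55 in unexposed lung and at 7.66, 7.71, 7.76, 7.56 and 8.16 at the higher dose.

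**Figure D4:**
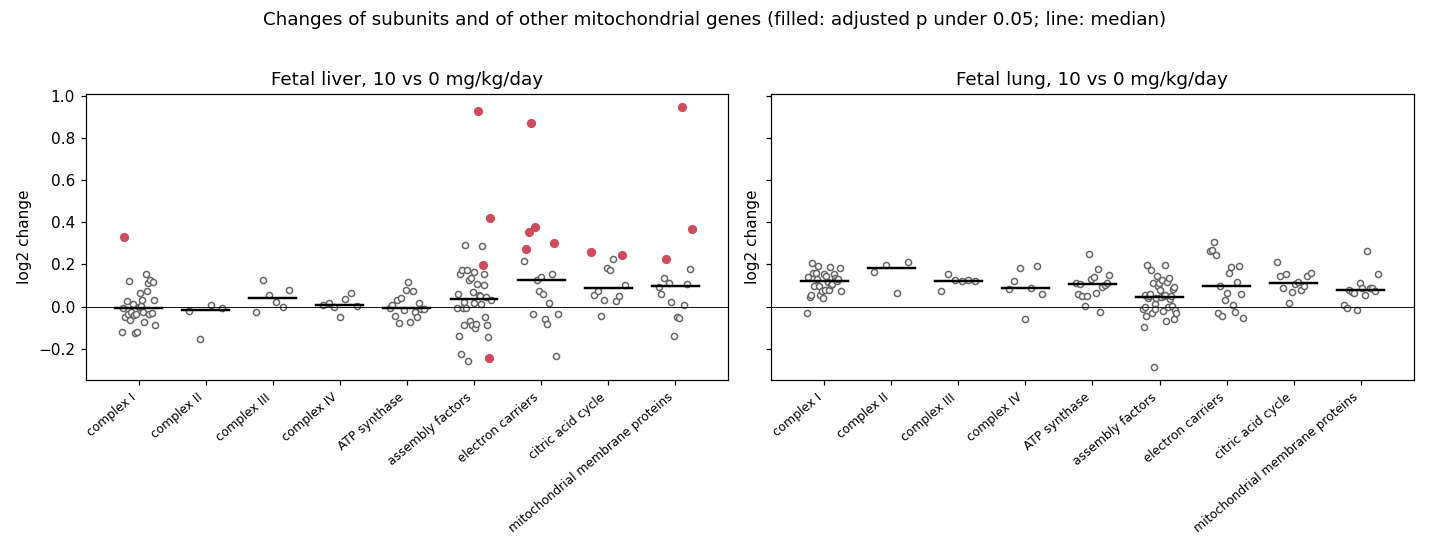
Log2 change at the higher dose against 0 of each tested gene (points), with the median (line), for the 4 complexes and 5 lists of other mitochondrial genes, in liver (left) and lung (right); filled points have an adjusted p under 0.05. In liver the filled points reach 0.95 for Slc25a4, while all except 1 of the 46 subunits are open, and in lung no point is filled.

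The difference between the tissues' responses was tested for each subunit in a fit of all 30 arrays. At the lower dose no member was called (limma, 0 of 46) where 2.06% of all genes were, and 1 member had an unadjusted p under 0.05 against 11.7% of all genes. At the higher dose Ndufa3 was the 1 member called, against 3.89% of all genes, and 8 members had an unadjusted p under 0.05 against 16% of all genes. In 7 of these 8 the liver change was the lower one, and the median difference was -0.11. The largest of them was Sdhb at -0.35 (CI -0.57 to -0.14, limma adjusted p = 0.0540), followed by Ndufc2 at -0.26 (adjusted p = 0.0781). With the replicate number as a block, which joins equal numbers across doses, Ndufc2 was called (limma adjusted p = 0.0401) and Sdhb (0.0699) and Ndufa3 (0.0675) were not. Another fit took dose and number together as a random block and was chosen after seeing the data. It called Ndufa3 (limma adjusted p = 0.0332), Sdhb (0.0379) and Ndufc2 (0.0498). The labels do not say that such arrays share a litter. Without lung litter 5 at the higher dose, which was highest in cardiac markers, 4 members in place of 8 had an unadjusted p under 0.05 and Ndufa3 was still the 1 called. Without both that litter and unexposed lung litter 1, or without unexposed liver litters 2, 3 and 5, no member was called. Among the other lists, the liver change exceeded the lung change for Etfdh by 0.72 and 0.63 and for Slc25a4 by 0.77 and 0.68 at the lower and the higher dose, each called. At the higher dose Sco2, Coa7 and Cox6b2 were also called, with a liver change higher by 0.87, 0.44 and 0.41, and Vdac1, a pore of the outer membrane, and the coactivator Ppargc1a were called the other way, at -0.25 and -1.05. Etfdh kept its calls in all alternatives tried. Slc25a4 lost its call in 1 of 31 alternatives at the lower dose, which was without unexposed liver litters 2, 3 and 5 (adjusted p = 0.0668), and in 9 of 31 at the higher dose, that one among them (adjusted p = 0.0834). Of the same 31, Sco2 lost its call in 13, Coa7 in 17, Cox6b2 in 16, Vdac1 in 13 and Ppargc1a in 13, and the second probe set of Coa7 gave 0.08. Without unexposed liver litters 2, 3 and 5, Sco2 kept its call and the other 4 lost theirs, and without the 2 lung litters highest in cardiac markers Cox6b2 alone of these 5 kept it. Slc25a4 in lung was at 11.39 in litter 5 at the higher dose and at 10.20 to 10.72 in the other 14 litters.

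Without PFOS, nearly all subunits were higher in liver than in lung. Of 46 members, 44 were higher in unexposed liver than in unexposed lung and 0 were lower (limma adjusted p under 0.05), where 42.6% of all genes were higher and 40.4% lower. The median was 0.75 against 0.04 for all genes, and by complex it was 0.70, 0.89, 0.85 and 0.60 for complexes I to IV. These differences are relative to an array normalization that sets all arrays to like overall levels. The median over the subunits stayed between 0.68 and 0.78 in the alternatives tried, in which 42 to 44 members were called. Of those called, 3 were lower with the second probe set and 1 with quantile normalization. The count was 42 without unexposed liver litters 2, 3 and 5.

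Uqcrq showed the largest difference, with 10.76, 10.76, 10.77, 10.78 and 10.76 in liver against 9.09, 8.95, 8.90, 9.24 and 8.95 in lung. The difference was 1.74 (CI 1.57 to 1.91), or 3.34-fold. Its other probe sets are dim and gave 0.48 to 0.68. Sdhd followed with 10.20, 10.21, 10.26, 10.36 and 10.29 in liver against the lung values above, a difference of 1.43 (CI 1.28 to 1.58), and its other probe set gave 1.28. No liver litter overlapped a lung litter for either gene, and both were picked for their large differences.

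In complex I, Ndufb10, an accessory subunit of the membrane arm, was at 9.57, 9.61, 9.70, 9.62 and 9.63 in liver and at 8.39, 8.40, 8.28, 8.57 and 8.46 in lung, a difference of 1.21 (CI 0.99 to 1.42). Ndufb9, also of the membrane arm, had 10.62, 10.69, 10.70, 10.53 and 10.60 against 9.73, 9.65, 9.44, 9.70 and 9.66, a difference of 1.00 (CI 0.84 to 1.15). Ndufs1, with the liver values above, had 8.30, 8.15, 7.97, 8.22 and 8.18 in lung, a difference of 0.97 (CI 0.79 to 1.15). Ndufa9, an accessory subunit near the quinone site, had 9.91, 10.03, 9.98, 10.13 and 10.01 against 9.14, 9.19, 8.86, 9.18 and 8.95, a difference of 0.95 (CI 0.78 to 1.11). No litters of the tissues overlapped in these genes, which were chosen for the largest differences of complex I. That choice favors separation, and 83% of all genes were called between the unexposed tissues (limma adjusted p under 0.05). The share of all genes without overlap is not given here, so the lack of overlap does not set the subunits apart.

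The other 3 subunits of complex II kept liver and lung apart in the same way. Sdhb, with the liver values above, was at 9.28, 9.28, 9.15, 9.23 and 9.18 in lung, a difference of 0.97 (CI 0.82 to 1.12). Sdhc, the larger membrane anchor, had 9.84, 9.86, 9.91, 9.78 and 9.70 against 9.07, 8.84, 8.87, 9.19 and 9.10, a difference of 0.81 (CI 0.61 to 1.00). Sdha, the flavoprotein, had 9.94, 9.87, 9.83, 10.01 and 9.93 against 9.18, 9.14, 9.08, 9.17 and 9.09, a difference of 0.78 (CI 0.66 to 0.91).

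Complex III followed the same order of tissues. Uqcrfs1, the Rieske iron-sulfur protein of complex III, was at 10.20, 10.30, 10.40, 10.32 and 10.27 in liver and at 9.33, 9.11, 9.06, 9.38 and 9.35 in lung, a difference of 1.05 (CI 0.91 to 1.20). Its core proteins Uqcrc1, at 9.91, 9.89, 9.90, 9.88 and 9.98 against 8.87, 9.18, 9.00, 9.13 and 9.00, and Uqcrc2 differed by 0.88 (CI 0.72 to 1.03) and 0.83 (CI 0.68 to 0.98). In each of these, chosen for the largest differences of complex III, no litters overlapped.

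In complex IV, Cox5b led with 0.96 (CI 0.80 to 1.12), from 11.90, 11.89, 11.92, 12.08 and 11.97 against 10.97, 11.09, 10.88, 11.09 and 10.92. Cox5a followed with 10.98, 11.11, 11.17, 11.12 and 11.24 against 10.44, 10.41, 10.04, 10.39 and 10.44, a difference of 0.78 (CI 0.60 to 0.96), and Cox7a2, with the values above, with 0.66 (CI 0.55 to 0.77). Cox6a1, the isoform used outside muscle, had 12.47, 12.42, 12.49, 12.48 and 12.52 against 11.97, 11.98, 11.81, 11.92 and 11.71, a difference of 0.60 (CI 0.49 to 0.71). In each of these genes, chosen for the largest differences of complex IV, every liver litter was above every lung litter.

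The smallest differences between the tissues were these. Ndufc2 was at 10.69, 10.79, 10.80, 10.91 and 10.92 in unexposed liver, overlapping the lung litters, a difference of -0.03 (CI -0.15 to 0.09, limma adjusted p = 0.599). Cox6c differed by 0.03 (CI -0.08 to 0.15, adjusted p = 0.565), and its other probe set gave -0.17. Cox4i1, a large nuclear-encoded subunit of complex IV, was called with 0.10 (CI 0.01 to 0.20, adjusted p = 0.0465) although its litters overlapped, and not without unexposed liver litters 2, 3 and 5 (adjusted p = 0.104) or without the 2 lung litters highest in cardiac markers (adjusted p = 0.0559). Of 30 members with several probe sets above the level for testing, all probe sets had the same sign in 26, and the exceptions were Cox6c, Ndufb2, Ndufb8 and Sdha.

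Some isoforms outside the 49 genes ran the other way. Cox8b and Cox6a2, the heart and muscle isoforms of their subunits, were lower in unexposed liver than in lung, at -1.30 and -0.68, the latter not called without unexposed liver litters 2, 3 and 5 (limma adjusted p = 0.0674). The mean level of Cox8b in unexposed liver was 3.93, under the mean 40th percentile of those arrays, 4.21. Its difference is thus taken from a dim level. Cox8b in unexposed lung was at 6.09, 5.00, 4.53, 4.81 and 5.70 and Cox6a2 at 6.65, 5.57, 5.47, 5.84 and 6.19, both highest in litter 1, the one highest in cardiac markers, and lowest in litter 3, the one lowest in them. The muscle isoform Cox7a1 was at 0.58 (adjusted p = 0.112), and called higher in liver at 0.88 without the 2 lung litters highest in cardiac markers. The part of muscle cells in these differences was not tested. Cox4i2, an isoform described in lung, was lower in liver by 1.12. Ndufa4l2, a relative of Ndufa4, was lower by 0.93 and Cox7a2l, a relative of Cox7a2 with a part in supercomplexes, by 0.76. The 3 other subunits of complex III, Cyc1, Uqcr10 and Uqcr11, were higher in liver by 1.06, 1.14 and 1.28.

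**Figure D5:**
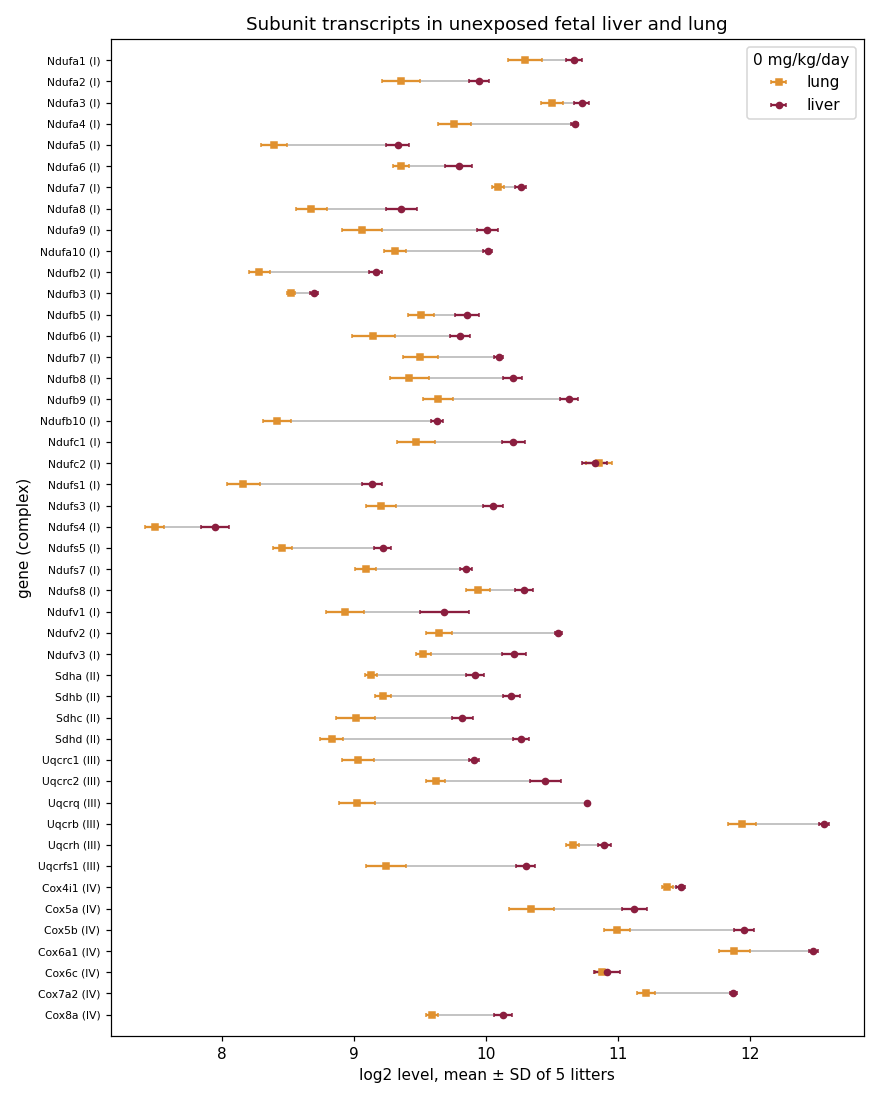
Log2 level of each tested subunit in unexposed liver (circles) and unexposed lung (squares), mean ± SD of 5 litters, joined by a line for each gene. Liver lies to the right of lung in all except Ndufc2, with gaps from 0.03 for Cox6c to 1.74 for Uqcrq; levels of different genes come from different probes and are not comparable.

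The windows at the members' starts were read for letters that they share. NRF1 letters were in 12 of the 42 windows (28.6%) and in 6.31% of all 32851 windows given for mouse genes, and GABP letters were in 9 (21.4%) against 8.86%. YY1 letters were in 5 (11.9%) against 1.40%, ERR letters in 1 (2.38%) against 0.423%, and PPAR letters in 1 (2.38%) against 1.72%. Of the 40 genes, 23 held at least 1 motif and 17 held none. The median unexposed difference was 0.78 for 9 tested genes with NRF1 letters and 0.69 for 28 without, and 0.60 for 9 with GABP letters against 0.76 for 28 without.

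Sdhd and Cox6a1 are shown because each holds both NRF1 and GABP letters before its start, in capitals, though their differences between the tissues are unlike. Sdhd lies at chr9:50603850-50604099 and Cox6a1 at chr5:115348959-115349208, both on the minus strand of GRCm38.p6 and printed 5′ to 3′ of the gene. In Cox6a1 the first run of capitals joins overlapping matches of both strands.
Sdhd: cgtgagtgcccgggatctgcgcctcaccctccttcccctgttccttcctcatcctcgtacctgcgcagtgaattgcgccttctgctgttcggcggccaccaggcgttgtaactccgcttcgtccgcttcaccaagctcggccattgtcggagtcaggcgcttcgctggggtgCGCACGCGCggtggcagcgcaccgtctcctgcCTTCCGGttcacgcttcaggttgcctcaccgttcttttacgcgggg
Cox6a1: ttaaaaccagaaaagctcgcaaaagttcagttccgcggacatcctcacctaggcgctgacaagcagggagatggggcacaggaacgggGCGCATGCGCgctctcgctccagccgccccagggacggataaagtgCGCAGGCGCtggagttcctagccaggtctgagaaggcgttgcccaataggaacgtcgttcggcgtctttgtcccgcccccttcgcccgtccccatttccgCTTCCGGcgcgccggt

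The YY1 letters shared a position. All 5 matches lay after the start, on the strand of the gene, with their first base between 23 and 36 bases into the transcript, where 0.268% of all windows have such a match. That range was read from these 5 genes. All 5 are complex I genes, as are 31 of the 49 listed genes, and their sites are shown with the motif in capitals.
Ndufc1: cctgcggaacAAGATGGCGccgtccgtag
Ndufa9: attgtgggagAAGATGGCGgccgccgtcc
Ndufs7: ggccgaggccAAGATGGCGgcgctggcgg
Ndufs6: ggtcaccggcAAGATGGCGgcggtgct
Ndufs4: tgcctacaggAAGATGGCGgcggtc
Ndufc1 lies at chr3:51408915-51408943, Ndufa9 at chr6:126849097-126849125, Ndufs6 at chr13:73328433-73328459 and Ndufs4 at chr13:114388045-114388069 on the minus strand, and Ndufs7 at chr10:80249463-80249491 on the plus strand. Of the 4 with a tested value, the median difference between unexposed liver and lung was 0.75, against 0.70 in the 33 tested genes without these letters.

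The single ERR and PPAR matches also lay after the start, on the strand opposite the gene, at chr9:50603800-50603823 in Sdhd and chr13:30545267-30545293 in Uqcrfs1, both genes of the minus strand. They are shown because these receptors are known to act on genes of oxidative metabolism, and the motif is in capitals.
Sdhd: ggttgtagagTGACCTTGAgccct
Uqcrfs1: aaaggtcgtcCCTGTGACCgacgaggt
Uqcrfs1 differed in liver by 0.05 and 0.08 with PFOS and Sdhd by -0.0020 and -0.0085, and neither was called at either dose.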

How the data were processed

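The deposited values are log2 levels of probe sets, which the authors made with RMA, per the submitters' processing notes. Neither its version nor the arrays it normalized together can be read from the notes or labels used here. Per the labels' protocols, RNA had to reach an integrity number of 8. RMA takes most probe sets as unmoved between arrays and understates changes of dim ones.

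The 49 genes and the other lists were chosen with earlier results of these data known. The platform annotation gives 1 symbol for 34945 of the 45101 probe sets, several for 932 and none for 9160, and 64 are the array maker's controls. Genes entered the test of a tissue if their probe set was above the 40th percentile on 5 or more of its 15 arrays. limma 3.58.1 (R 4.3.3) was fitted to 1 tissue at a time with a mean for every dose, and to all 30 arrays for comparisons of tissues. Its p-values are two-sided and were Benjamini-Hochberg adjusted over all genes tested. The fits were tested on simulated data.

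Values in every litter are given for members called with dose, for the smallest p of a complex without a call, and for the 4 largest differences between unexposed tissues per complex. Ndufs1, Etfa and the isoforms outside the 49 genes were described after their values were seen, and so were the litter values of genes outside the 49. Alternatives were other filters, normalizations, probe sets, spreads, array weights and sets of arrays, a replicate block, and leaving out each litter. Figures used matplotlib 3.10.9.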

Additional observations from a re-analysis of the deposited data

Results flagged for a closer look

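Single litters stood apart from the other 4 of their group in 5 of 120 groups of litters, over the 20 genes whose values were looked at in this way (4.17%; chance gives about 1 in 20). Ndufa3 was at 11.13 in liver litter 1 at 5 mg/kg/day, above the other 4. Uqcrq was at 10.93 in liver litter 3 at 10 mg/kg/day, and Uqcrc1 was at 9.98 in unexposed liver litter 5, both above the rest of their group. Sdhc was at 9.52 in lung litter 5 at 10 mg/kg/day, the litter highest in cardiac muscle markers. Cox5a was at 10.04 in unexposed lung litter 3, below the other 4, and that litter had the lowest cardiac level of its group.

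The change of Ndufa3 at 10 mg/kg/day was larger in liver than in lung by 0.29, which passed the test of the difference between the tissues and was lost in 14 of the 20 fits that leave out 1 litter.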

How the results depend on the processing

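No median change of the members moved by as much as the spread (SD) between litters in the alternatives tried. In lung that limit is wide: the median at 10 mg/kg/day, 0.12 in the main fit, ranged from 0.05 to 0.16. The count of members called in liver at 5 mg/kg/day, 1, became 2 with a stricter level filter or a trended, robust spread, which add Ndufs1, became 0 with quantile normalization, and ranged from 0 to 1 with 1 litter left out. In liver at 10 mg/kg/day it was 2 with quantile normalization, which adds Ndufa1 as lower. An alternative chosen after seeing the data, without unexposed liver litters 2, 3 and 5, gave 0 at both doses, with fewer samples.

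The count for liver change minus lung change at 10 mg/kg/day, 1, was 0 with no filter and with the second probe set, 0 without unexposed liver litters 2, 3 and 5 and without the 2 lung litters highest in cardiac markers (both chosen after seeing the data), 2 with a stricter filter, quantile normalization or the mean of probe sets, and 3 with a trended, robust spread or the litter as a random block (chosen after seeing the data); it ranged from 0 to 3 with 1 litter left out. Quantile normalization calls Ndufc2 and Sdhb lower and not Ndufa3. Except as said, the cause was not tested. The counts in lung stayed at 0.

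With the replicate number as a block, the counts in liver stayed at 1, with Ndufa3 at an adjusted p of 0.0328 and 0.00368 (limma), and its tissue difference had 0.0675 while Ndufc2 was called lower (0.0401; 0.0781 without the block). Liver and lung litters of the same dose and number deviated together with r from 0.001 to 0.354 over genes, above 0.1 in 12 of 15, and 13 of 15 correlated best with their own number, a hint from the data; the numbers were not taken as pairs. Of 711 values of single members under the alternatives, 681 kept their direction and side of the threshold, 26 lost the call and 4, none of them called, reversed. All 26 lost calls were of Ndufa3, the 1 member called with PFOS. In liver its call was kept in 20 and lost in 1 at 10 mg/kg/day, and kept in 16 and lost in 5 at 5 mg/kg/day. For the tissue difference at 10 mg/kg/day its call was kept in 11 and lost in 20. All 4 reversals came with the second probe set: Uqcrq in liver at 5 mg/kg/day at -0.11, and in lung at that dose Sdhd at -0.0065, Uqcrb at -0.047 and Cox8a at -0.0023. For called genes of other lists, 702 of 901 values kept the call, 199 lost it and 0 reversed.

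Arrays give no depth; Ndufb4 was too dim to test, and 1 of 11 mitochondrially encoded genes was matched.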
